A study of Mus musculus with 16 samples.

Results

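The 5 genes described here act in the supply or use of glycerol 3-phosphate or in the transport of glycerol. Glycerol 3-phosphate is the backbone onto which fatty acids are joined to make triglyceride. The 5 are Gk (glycerol kinase, also written Gyk), Gpd1 and Gpd2 (the cytosolic and the mitochondrial glycerol-3-phosphate dehydrogenase), Pck1 (the cytosolic phosphoenolpyruvate carboxykinase) and Aqp7 (the glycerol channel of fat cells). They were taken by name as 5 of the 38924 genes in the count table, and all 5 were found and passed the filter on low counts that left 14103 genes for testing.

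Glycerol 3-phosphate reaches fat by several routes. Glycerol kinase phosphorylates free glycerol, including glycerol released when stored triglyceride is broken down. GPD1 reduces dihydroxyacetone phosphate from glycolysis, and PCK1 feeds the same intermediate from pyruvate and lactate, a route called glyceroneogenesis. GPD2 sits on the inner mitochondrial membrane and oxidises glycerol 3-phosphate back to dihydroxyacetone phosphate, so that GPD1 and GPD2 together carry electrons from cytosolic NADH to the respiratory chain. White fat holds little glycerol kinase and exports most of its glycerol through AQP7, whereas brown fat is known for glycerol kinase activity and for abundant GPD2.

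The samples were interscapular brown fat of C57BL/6J mice, profiled by bulk RNA sequencing with 4 libraries in each of 4 groups and 16 in all. Mice with a knockout of Akt2 in brown fat (KO) and their wild-type littermates (WT) were held for 4 weeks, from 9 to 13 weeks of age, at 22 °C, a mild cold for mice, or at 30 °C, their thermoneutral temperature. AKT2 is a kinase of insulin signalling. The knockout was made with UCP1-CreER, an inducible Cre recombinase driven by the Ucp1 promoter, so cells of the tissue that do not express Ucp1 keep Akt2. The labels give neither the floxed allele nor the inducing agent, nor whether the littermates carried or received either. They also do not say whether the 4 libraries of a group are 4 animals, and every p-value is relative to the spread among these libraries, which may be in part technical.

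The libraries held 12751528 to 23866743 counts each. Levels are counts per 1000000 counts of a library (CPM) scaled with trimmed-mean (TMM) factors, and means are given ± SD (n = 4). Akt2 averaged 82.2 ± 6.03 CPM in KO at 22 °C and 232 ± 19.8 CPM in WT at 22 °C, and 69.4 ± 10.7 CPM in KO at 30 °C and 204 ± 12.9 CPM in WT at 30 °C. All 8 brown adipocyte markers had counts in every library, and their summed level was 8969 to 13920 CPM in KO at 22 °C, 8480 to 15750 CPM in WT at 22 °C, 4900 to 5912 CPM in KO at 30 °C and 4629 to 4881 CPM in WT at 30 °C. Skeletal muscle markers took more than 0.1% of the counts in 4 libraries, namely KO at 22 °C replicate 1 (0.634%), KO at 30 °C replicates 1 (0.117%) and 2 (0.401%) and WT at 30 °C replicate 2 (0.26%). All 4 stayed in the comparisons. Fold changes are log2 values from edgeR's quasi-likelihood test, with Benjamini-Hochberg adjusted p over all 14103 genes, and a gene was called changed at an adjusted p under 0.05.

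Gk was the member with the largest differences between groups. It was higher at 22 °C in both genotypes, and at 22 °C it was higher in KO than in WT. Gk (ENSMUSG00000025059) lies on the minus strand of X, at 85701937 to 85776819 (GRCm38, as are all positions here). In KO at 22 °C it measured 328, 431, 453 and 504 CPM, against 391, 141, 108 and 181 CPM in WT at 22 °C. At 30 °C it measured 35.1, 44.2, 39.9 and 40.3 CPM in KO and 31.9, 34.4, 41.4 and 41.7 CPM in WT. Each library at 22 °C was above each library at 30 °C. Within 22 °C the genotypes overlapped because WT replicate 1, at 391 CPM, stood above KO replicate 1. The other WT libraries were all below the KO libraries.

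The log2 fold change of Gk at 22 °C against 30 °C was 3.43 in KO (SE 0.314, adjusted p = 8.19e-06), a 10.8-fold difference, and only 10 of the 14103 tested genes had a larger one. In WT it was 2.46 (SE 0.302, adjusted p = 2.01e-05), a 5.50-fold difference, and 55 genes had a larger one. For KO against WT at 22 °C it was 1.06 (SE 0.287, adjusted p = 0.0205). At 30 °C it was 0.09 (adjusted p = 0.998), with a level of 39.9 ± 3.71 CPM in KO and 37.4 ± 4.97 CPM in WT. The difference between the KO effects at 22 °C and at 30 °C, that is the interaction, was 0.97 (SE 0.407) and did not pass (adjusted p = 0.188), so a larger temperature difference in KO than in WT was not established for Gk. The call between genotypes at 22 °C ended without WT replicate 2 (adjusted p = 0.0594) or without KO replicate 4 (adjusted p = 0.0549), whereas without WT replicate 1 the log2 fold change was 1.58 (adjusted p = 7.58e-05) and the interaction of 1.49 was called (adjusted p = 0.00452). It also ended when only the 8 libraries at 22 °C were fitted (1.07, adjusted p = 0.108).

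Pck1, the rate-limiting enzyme of glyceroneogenesis, was higher at 22 °C by a much smaller factor and was not called between KO and WT. Pck1 (ENSMUSG00000027513) lies on the plus strand of chromosome 2, at 173153048 to 173159273. It measured 4355, 5712, 5907 and 6197 CPM in KO at 22 °C, against 5429, 5672, 4814 and 4274 CPM in WT at 22 °C. At 30 °C the levels were 2896, 3402, 3575 and 3822 CPM in KO and 3708, 2665, 3528 and 3703 CPM in WT. The genotypes overlapped at both temperatures, and every library at 22 °C was above every library at 30 °C. The log2 fold change at 22 °C against 30 °C was 0.70 in KO (SE 0.134, adjusted p = 0.00162) and 0.57 in WT (SE 0.134, adjusted p = 0.00353). Between KO and WT it was 0.14 at 22 °C (SE 0.133, adjusted p = 0.50) and 0.01 at 30 °C (adjusted p = 0.998), neither of which passed.

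The promoters of Gk and Pck1 are printed because Gk and Pck1 stand for phosphorylation of glycerol and glyceroneogenesis, the routes whose differences between groups are set side by side further on. Each is the RefSeq window (GRCm38.p6) of 250 bases before to 50 bases after the gene's start, read 5′ to 3′ on the gene's strand. Capitals mark matches to the motifs searched on both strands, CACGTG (an E-box) in Gk and TTACGTCA (the letters of the cAMP response element of Pck1) in Pck1.
Gk promoter, chrX:85776770-85777069, minus strand: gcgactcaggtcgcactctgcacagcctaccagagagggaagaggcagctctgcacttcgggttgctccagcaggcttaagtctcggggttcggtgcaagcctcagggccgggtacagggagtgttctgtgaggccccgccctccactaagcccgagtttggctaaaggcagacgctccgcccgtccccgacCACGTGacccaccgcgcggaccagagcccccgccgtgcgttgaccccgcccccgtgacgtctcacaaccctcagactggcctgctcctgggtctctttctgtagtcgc
Pck1 promoter, chr2:173152823-173153122, plus strand: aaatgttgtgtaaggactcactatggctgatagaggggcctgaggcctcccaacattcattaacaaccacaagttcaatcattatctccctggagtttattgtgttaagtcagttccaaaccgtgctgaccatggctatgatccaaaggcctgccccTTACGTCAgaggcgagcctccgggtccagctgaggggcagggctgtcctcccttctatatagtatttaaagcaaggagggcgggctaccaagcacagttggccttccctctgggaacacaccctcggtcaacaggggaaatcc
CACGTG began 58 bases before the start of Gk and is found in 7.15% of all RefSeq mouse promoters of this length. TTACGTCA began 93 bases before the RefSeq start of Pck1 and is found in 0.499% of them. That RefSeq start lies within the span given above for Pck1, not at its first base. Neither promoter held TGACGTCA (1.79% of promoters), the forkhead letters GTAAACA (3.65%), the nuclear receptor half-site AGGTCA (16.3%) or TATAAA (13.6%). Promoter windows matched 4 of the 5 members, and the window of Gpd1 was not used here. Of the other windows, both of Aqp7 held AGGTCA on the opposite strand and neither of Gpd2 held any of these motifs. The direct repeat of AGGTCA with 1 base between, present in 0.0396% of promoters, was in none of them. A match is a description of the letters and does not show a factor at the site.

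Gpd1, with the highest mean level of the 5 per length in every group, was at 22 °C lower in KO than in WT. Gpd1 (ENSMUSG00000023019) lies on the plus strand of chromosome 15, at 99717515 to 99725005. It measured 5000, 5804, 5569 and 5875 CPM in KO at 22 °C, against 10599, 8591, 6860 and 6888 CPM in WT at 22 °C. At 30 °C it measured 5190, 4388, 4000 and 3891 CPM in KO and 3853, 3554, 4475 and 3231 CPM in WT. The genotypes did not overlap at 22 °C and overlapped at 30 °C. In WT all libraries at 22 °C were above all at 30 °C, whereas in KO replicate 1 at 30 °C was above replicate 1 at 22 °C.

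The log2 fold change of Gpd1 for KO against WT was -0.57 at 22 °C (SE 0.140, adjusted p = 0.0130) and 0.21 at 30 °C (adjusted p = 0.998). The interaction was -0.78 (SE 0.198, adjusted p = 0.0470), which made Gpd1 the one member with a called interaction. At 22 °C against 30 °C the log2 fold change was 0.35 in KO (SE 0.140, adjusted p = 0.0769, not called) and 1.12 in WT (SE 0.142, adjusted p = 2.46e-05). The interaction lay close to the threshold, and it was called in only 3 of the 16 fits that each left out 1 library, in which replicate 3 or replicate 4 of WT at 22 °C or replicate 3 of WT at 30 °C was absent. It was lost without the 4 muscle-bearing libraries (-0.55, adjusted p = 0.334). Without those libraries the KO effect at 22 °C was -0.53 and also missed the threshold (adjusted p = 0.0606).

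Gpd2 was likewise lower in KO than in WT at 22 °C, and it was higher at 22 °C in both genotypes. Gpd2 (ENSMUSG00000026827) lies on the plus strand of chromosome 2, at 57237635 to 57370719. It measured 681, 876, 905 and 924 CPM in KO at 22 °C, against 1840, 1104, 1288 and 1571 CPM in WT at 22 °C. At 30 °C it measured 557, 561, 498 and 475 CPM in KO and 460, 604, 701 and 565 CPM in WT. All KO libraries were below all WT libraries at 22 °C, and the genotypes overlapped at 30 °C. In KO the lowest library at 22 °C was above the highest at 30 °C, as it was in WT.

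For Gpd2 the log2 fold change of KO against WT was -0.78 at 22 °C (SE 0.155, adjusted p = 0.00382) and -0.16 at 30 °C (adjusted p = 0.998). At 22 °C against 30 °C it was 0.70 in KO (SE 0.155, adjusted p = 0.00424) and 1.32 in WT (SE 0.156, adjusted p = 1.49e-05). The interaction of -0.62 (SE 0.218, adjusted p = 0.124) did not pass. The KO effect at 22 °C kept its call in all 8 fits that left out 1 library, with log2 fold changes of -0.89 to -0.64.

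Aqp7 went the other way with temperature and was lower at 22 °C. Aqp7 (ENSMUSG00000028427) lies on the minus strand of chromosome 4, at 41033074 to 41048139. It measured 194, 247, 259 and 224 CPM in KO at 22 °C, against 231, 216, 204 and 219 CPM in WT at 22 °C. At 30 °C it measured 260, 266, 269 and 342 CPM in KO and 330, 314, 355 and 325 CPM in WT. The genotypes overlapped at both temperatures. In both genotypes all libraries at 22 °C were below all at 30 °C, though in KO replicate 3 at 22 °C (259.05 CPM) and replicate 1 at 30 °C (259.59 CPM) were almost level.

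The log2 fold change of Aqp7 at 22 °C against 30 °C was -0.30 in KO (SE 0.101, adjusted p = 0.0384) and -0.61 in WT (SE 0.101, adjusted p = 0.00026). Between KO and WT it was 0.09 at 22 °C (adjusted p = 0.576) and -0.22 at 30 °C (unadjusted p = 0.0436, adjusted p = 0.998). The interaction was 0.31 (adjusted p = 0.230). The call in KO was lost without replicate 1 or 4 at 22 °C and without replicate 3 or 4 at 30 °C, with log2 fold changes of -0.36 to -0.21 over the 8 fits that left out 1 KO library.

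**Figure D1:**
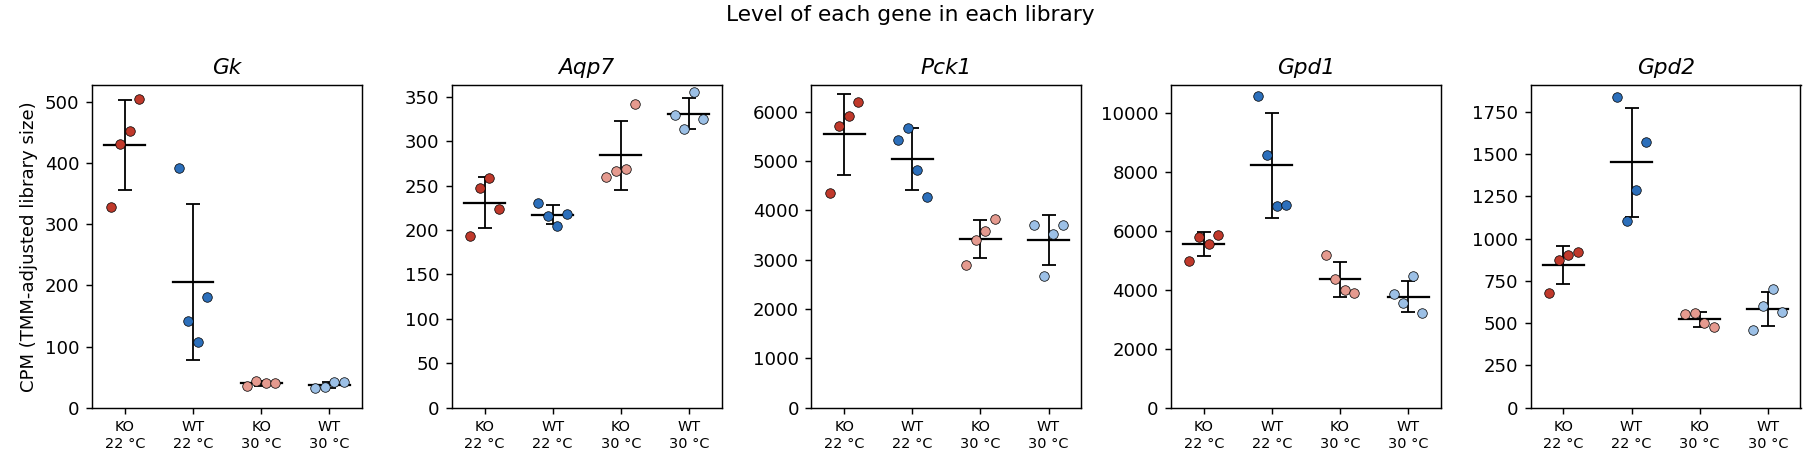
CPM of the 5 members in each of the 16 libraries, 1 panel per gene with its own axis from 0, with the group mean and SD. Gk is above 100 CPM in all libraries at 22 °C and below 50 CPM in all at 30 °C, with WT replicate 1 at 391 CPM among the KO libraries at 22 °C, while Gpd1 and Gpd2 are highest in WT at 22 °C and Aqp7 is highest at 30 °C.

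Counted over the members, KO against WT at 22 °C gave 1 higher (Gk) and 2 lower (Gpd1 and Gpd2), where 7.52% of all tested genes were called higher and 10.1% lower. At 30 °C edgeR called none of the 5, and 0.0425% of all tested genes in either direction. At an unadjusted p under 0.05, 1 member (Aqp7) passed there, as did 608 of the 14103 tested genes, and DESeq2 and limma-voom also called 0. At 22 °C against 30 °C, KO gave 3 higher (Gk, Gpd2 and Pck1) and 1 lower (Aqp7), with 13.8% of genes higher and 13.0% lower. WT gave 4 higher and 1 lower (Aqp7), with 20.5% of genes higher and 17.8% lower. The interaction was called for 1 member (Gpd1, negative), with 0.752% of genes positive and 2.39% negative. The median log2 fold change at 22 °C against 30 °C was 0.70 over the 5 members in KO and 0.02 over all genes, and 1.12 over the members in WT and -0.03 over all genes. The comparisons at 22 °C share the 4 WT or the 4 KO libraries of that temperature, so their values are not independent of each other. In bulk tissue, fewer cells of a type and less RNA per cell cannot be told apart.

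**Figure D2:**
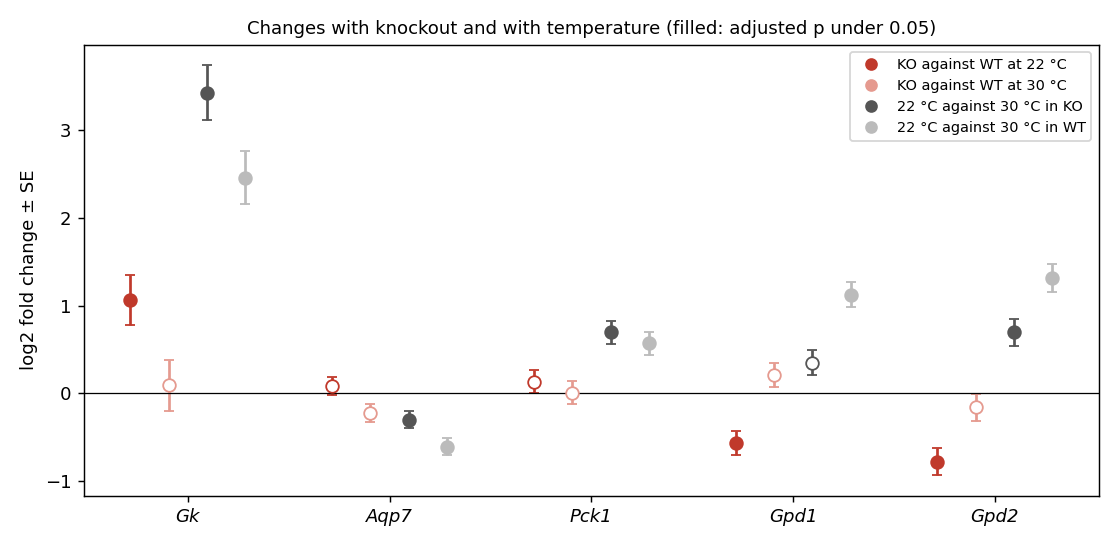
Log2 fold changes ± SE of the 5 members in the 4 pairwise comparisons, filled where the adjusted p is under 0.05. Gk reaches 3.43 at 22 °C against 30 °C in KO, Gpd1 and Gpd2 are below 0 for KO against WT at 22 °C, and no point is filled for KO against WT at 30 °C.

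Levels of different genes can be set side by side only per length, here CPM per kilobase of joined exons. On that scale Gpd1 averaged 1878 ± 134 in KO at 22 °C and 2781 ± 598 in WT at 22 °C, and Pck1 averaged 1616 ± 238 in KO and 1472 ± 184 in WT. Gpd1 was above Pck1 within each of the 16 libraries. The ranges of the pair over the libraries of a group overlapped in KO at 22 °C and in no other group. The order of Gpd2 and Aqp7 changed with temperature. At 22 °C Gpd2 was the higher, with 129 against 81.6 CPM per kilobase for Aqp7 in KO and 222 against 76.9 in WT. At 30 °C Aqp7 was the higher, with 100 against 79.8 CPM per kilobase for Gpd2 in KO and 117 against 88.9 in WT. The ranges of these 2 genes did not overlap within any of the 4 groups. Gk was the lowest member per length in every group, at 55.4 in KO at 22 °C, 26.5 in WT at 22 °C, 5.15 in KO at 30 °C and 4.82 in WT at 30 °C.

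**Figure D3:**
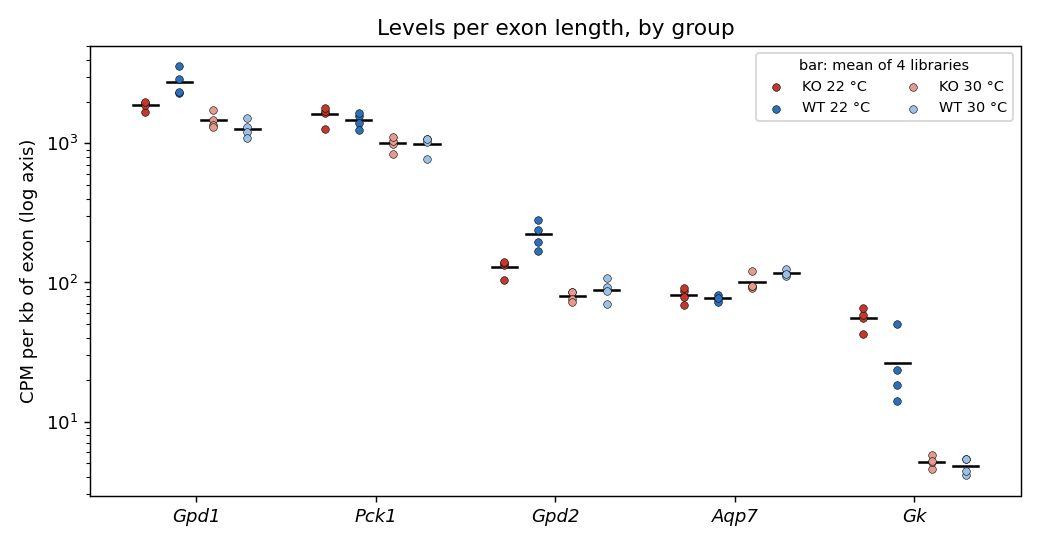
CPM per kilobase of joined exons for the 5 members in the 4 groups, on a log axis, with each library as a point. Gk is lowest in every group, between 4.82 on average in WT at 30 °C and 55.4 in KO at 22 °C, and Gpd2 stands above Aqp7 at 22 °C and below it at 30 °C.

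Ratios of 2 members within a library hardly depend on the scaling between libraries. There were 12 exact two-sided permutation tests of such log2 ratios, 4 libraries against 4, with Benjamini-Hochberg adjustment over the 12. The smallest p this design allows is 0.0286. Every adjusted exact p of 0.049 below is that smallest p after adjustment, so these values are tied and do not rank the differences. The adjusted value also depends on how many of the 12 tests reached the smallest p. Most of the tied tests share Gk, and they share libraries, so they are not independent of each other. The ratios are of counts per library and their levels are not per length, so only differences between groups are read.

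The ratio of Gk to Pck1 sets glycerol phosphorylation beside glyceroneogenesis. Its log2 value averaged -3.70 ± 0.051 in KO at 22 °C and -4.79 ± 0.775 in WT at 22 °C, with no overlap (difference 1.09, adjusted exact p = 0.049). The 4 KO libraries were within a narrow range of each other, and the WT libraries were spread widely. The KO difference at 30 °C was 0.08 (adjusted exact p = 0.657), with overlap. At 22 °C against 30 °C the difference was 2.72 in KO and 1.71 in WT, each without overlap (adjusted exact p = 0.049 for both).

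The ratio of Gk to Aqp7 sets capture of glycerol beside its channel. Its log2 value averaged 0.88 ± 0.190 in KO at 22 °C and -0.26 ± 0.730 in WT at 22 °C (difference 1.15, adjusted exact p = 0.049). The groups did not overlap, but KO replicate 1 (0.761) and WT replicate 1 (0.759) were almost level. The exact p rests on that order. At 30 °C the log2 ratio was -2.82 ± 0.209 in KO and -3.15 ± 0.171 in WT (difference 0.33, adjusted exact p = 0.0857). With temperature it differed by 3.71 in KO and by 2.89 in WT (adjusted exact p = 0.049 for both), the largest differences of the 12.

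The ratio of Gpd1 to Gpd2 compares the cytosolic with the mitochondrial enzyme of the glycerol phosphate shuttle. Between KO and WT it differed by 0.22 at 22 °C (adjusted exact p = 0.343) and by 0.35 at 30 °C (adjusted exact p = 0.152), with overlap each time. At 22 °C against 30 °C the difference was -0.33 in KO without overlap (adjusted exact p = 0.049) and -0.20 in WT with overlap (adjusted exact p = 0.405). Whether that temperature difference itself differed between KO and WT was not tested.

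**Figure D4:**
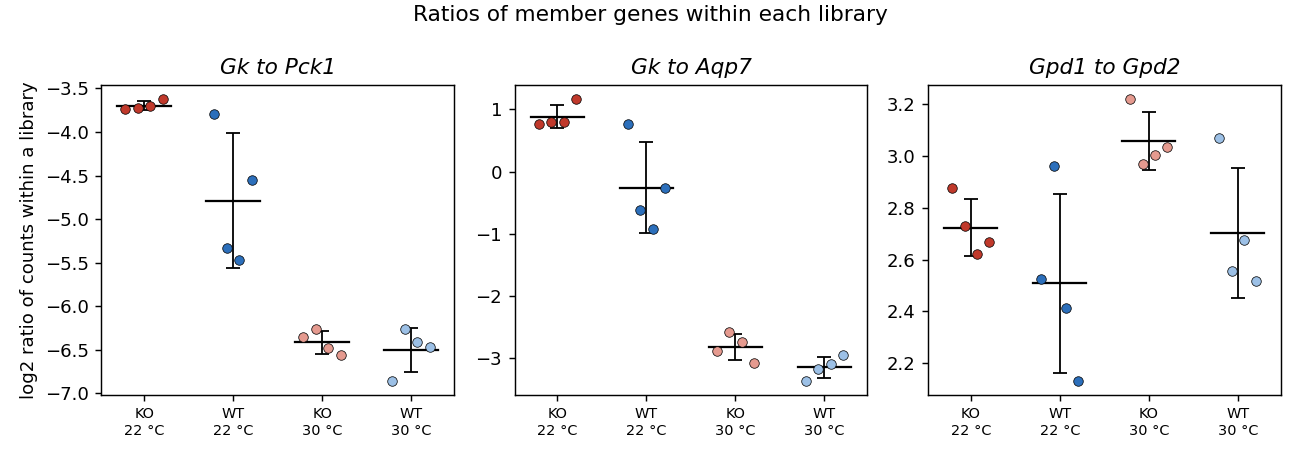
Log2 ratios of Gk to Pck1, Gpd1 to Gpd2 and Gk to Aqp7 in each library, by group, with the group mean and SD. At 22 °C both ratios with Gk lie higher in KO than in WT without overlap. For Gk to Aqp7, KO replicate 1 (0.761) and WT replicate 1 (0.759) are almost level. The KO libraries have a narrower spread for Gk to Pck1 (SD 0.051, against 0.775 in WT).

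At 22 °C the libraries of a group were spread more widely in Gk than in the other members, whereas at 30 °C they were not. In WT at 22 °C the SD of log2 CPM was 0.799 for Gk, larger than that of 94.9% of the tested genes, whose median was 0.269. Aqp7 in the same 4 libraries had an SD of 0.0722, and 3.11% of genes had a smaller one. In KO at 22 °C the SD of Gk was 0.264, larger than that of 64.3% of genes. At 30 °C it was 0.136 in KO, where Gpd1 had 0.187, and 0.194 in WT, where Gpd2 had 0.253.

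Other measures of the libraries moved with the groups. The log2 difference of Dbp and Arntl, a pair of circadian clock genes with opposite phase, was -3.48 to -2.22 in KO at 22 °C and -0.81 to 1.79 in WT at 22 °C, and -1.37 to 0.26 in KO at 30 °C and -0.57 to 0.41 in WT at 30 °C. The KO libraries at 22 °C overlapped no other group on it, and the time of tissue collection is not given in the sources used here. With this difference as a term in the fit, chosen after seeing the data, no member was called for KO against WT at 22 °C (Gk 1.17, adjusted p = 0.570; Gpd1 -0.09, adjusted p = 0.944; Gpd2 -0.73, adjusted p = 0.444), and 104 genes were called in all. Because it separates the genotypes at 22 °C, the share of the difference that goes with it cannot be told apart from the genotype. KO replicate 1 at 22 °C, with the most skeletal muscle markers, was the lowest library of its group for all 5 members. Without the 4 muscle-bearing libraries the log2 fold change of Gk for KO against WT at 22 °C was 1.16 and stayed called (adjusted p = 0.0377).

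Markers of cells other than adipocytes also moved with the groups. The summed level of 7 endothelial markers was 882 to 1041 CPM in KO at 22 °C and 704 to 893 CPM in WT at 22 °C, and 1135 to 1370 CPM in KO at 30 °C and 1101 to 1204 CPM in WT at 30 °C. Of these markers, 4 were called higher in KO than in WT at 22 °C, and at 22 °C against 30 °C 2 were called lower in KO and 4 in WT. Among all tested genes 7.52% were called higher in KO than in WT at 22 °C. With temperature 13.0% were called lower in KO and 17.8% in WT. The sum of 6 macrophage markers was 43.8 to 58.0 CPM in KO at 22 °C, 42.3 to 81.5 CPM in WT at 22 °C, 86.4 to 97.9 CPM in KO at 30 °C and 80.9 to 108 CPM in WT at 30 °C. The sum of 4 Schwann cell and nerve markers was higher at 22 °C without overlap, at 131 to 228 CPM in KO and 116 to 187 CPM in WT, against 40.5 to 118 CPM in KO at 30 °C and 52.7 to 110 CPM in WT at 30 °C. The part of the macrophage and Schwann cell markers in the members' differences was not tested. With the endothelial sum as a term in the fit, chosen after seeing the data, Aqp7 at 22 °C against 30 °C was -0.09 in KO (adjusted p = 0.762) and -0.24 in WT (adjusted p = 0.619), and neither was called. Gk stayed called in KO and had a log2 fold change of 2.33 in WT (adjusted p = 0.0871). For KO against WT at 22 °C it left 1 member called, Gpd2.

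The genes whose pattern over the 16 libraries was most like each member were found by the root mean square difference of centred log2 CPM over 10155 genes. For Gk they were Noct (0.421), which encodes the rhythmic protein nocturnin, Ffar4 (0.484), a fatty acid receptor, and Ppargc1a (0.607), a coactivator of mitochondrial biogenesis. Noct was called at 22 °C against 30 °C in both KO (3.26) and WT (2.35), and for KO against WT at 22 °C (1.29, adjusted p = 0.00374). For Gpd1 the nearest were Hadha (0.145), the alpha subunit of the mitochondrial trifunctional protein, Dld (0.149), a subunit of the pyruvate dehydrogenase complex, and Pdss2 (0.151), of coenzyme Q synthesis. For Gpd2 they were Dlat (0.153), another subunit of pyruvate dehydrogenase, Eif4e3 (0.163) and Ppp2r5a (0.169). For Pck1 they were Iba57 (0.106), Ubtf (0.137) and Chkb (0.138), and for Aqp7 Ccdc62 (0.112), Ppt1 (0.135) and Pfas (0.14). These differences grow with how much a member itself varied (root mean square 1.54 for Gk, 0.458 for Gpd1, 0.605 for Gpd2, 0.365 for Pck1 and 0.271 for Aqp7), so they are not compared between members.

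Of the 8 close relatives of the members, 4 had enough counts to be tested. The mitochondrial PEPCK gene Pck2 fell at 22 °C against 30 °C in both genotypes (log2 fold change -1.62 in KO and -1.24 in WT), in the direction opposite to Pck1. Gpd1l, a relative of Gpd1, also fell in both (-0.31 in KO and -0.37 in WT). Gk5, of the glycerol kinase family, fell in WT (-0.65) and was not called in KO, and Aqp11 was called in neither. Of all tested genes 13.8% rose and 13.0% fell with temperature in KO, and 20.5% rose and 17.8% fell in WT. None of the 4 was called for KO against WT at either temperature or in the interaction. For KO against WT 7.52% of all tested genes were higher and 10.1% lower at 22 °C, and 0.0425% were called at 30 °C. The interaction was positive in 0.752% and negative in 2.39%. With shares this low, the absence of calls among 4 genes is not read as a result about them. Gk2, Gykl1, Aqp3 and Aqp9 had 0, 2, 13 and 126 counts over all 16 libraries and were not tested.

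Among users of glycerol 3-phosphate, 2 of 4 tested genes rose at 22 °C against 30 °C in each genotype, with a median of 0.65 in KO and 0.73 in WT. The share of all tested genes that rose was 13.8% in KO and 20.5% in WT. Gpam, the mitochondrial acyltransferase that starts triglyceride synthesis, rose in KO (1.36) and in WT (0.99). Gpat3, an acyltransferase of the endoplasmic reticulum, rose at 22 °C against 30 °C in KO (0.84) and was higher in KO than in WT at 22 °C (0.80). Pgp, a phosphatase that can release glycerol from glycerol 3-phosphate, rose in WT (1.05), was lower in KO than in WT at 22 °C (-0.64) and had a called interaction (-0.84). For KO against WT at 22 °C 7.52% of all tested genes were higher and 10.1% lower. The interaction was positive in 0.752% and negative in 2.39%. No user was called between KO and WT at 30 °C, where 0.0425% of all tested genes were called.

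Of 7 genes that release glycerol from triglyceride, 4 rose and 1 fell at 22 °C against 30 °C in each genotype, with a median of 0.73 in KO and 0.52 in WT. Of all tested genes 13.8% rose and 13.0% fell in KO, and 20.5% rose and 17.8% fell in WT. Abhd5, the coactivator of adipose triglyceride lipase, rose in KO (1.20) and WT (1.04). Mgll, the monoglyceride lipase that frees glycerol, rose in KO (0.73) and WT (0.80), and Abhd6, another monoglyceride lipase, rose in KO (0.76) and WT (0.96). Lpl, lipoprotein lipase, rose in KO (1.01) and was 0.23 in WT (not called). The gene that fell was Gpihbp1, which anchors lipoprotein lipase to capillaries (-0.74 in KO and -0.48 in WT), named here because it was the only one.

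Between genotypes at 22 °C, 2 of the 7 were called, in opposite directions, where 7.52% of all tested genes were higher and 10.1% lower. Lpl was higher in KO than in WT (0.90) and had a positive interaction (0.78). Lipe, hormone-sensitive lipase, was lower (-0.57) with a negative interaction (-0.53). The median over the 7 was -0.12, against 0.02 over all genes. Called interactions were positive in 0.752% and negative in 2.39% of all tested genes.

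Of 10 genes on the route between pyruvate and triose phosphate, 3 rose and 1 fell at 22 °C against 30 °C in KO, and 7 rose and 1 fell in WT, with a median of 0.25 in KO and 0.84 in WT. The shares of all tested genes were 13.8% up and 13.0% down in KO, and 20.5% up and 17.8% down in WT. Pcx, pyruvate carboxylase, rose in KO (0.67) and WT (1.00), and Mdh2, mitochondrial malate dehydrogenase, rose in KO (0.44) and in WT (0.83). Got2, mitochondrial aspartate aminotransferase, fell in KO (-1.08) and WT (-1.35). In WT the called genes with the smallest p were Gapdh (1.57), Eno1 (1.62) and Pcx. At 22 °C, 4 of the 10 were lower in KO than in WT and 0 higher, with a median of -0.35. Of all tested genes 10.1% were lower and 7.52% higher. The 4 lower genes were Gapdh (-1.26) and Eno1 (-1.34), a pair of glycolytic enzymes that also run in reverse, cytosolic Mdh1 (-0.53) and Pcx (-0.49). The interaction was called for Gapdh (-1.25), Eno1 (-1.41) and Mdh1 (-0.74). Among all tested genes 0.752% had a positive and 2.39% a negative called interaction. Gapdh, Eno1, Pgam1, Pgk1, Tpi1 and Got2 have near-identical copies in the genome, and their counts are uncertain.

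The malate-aspartate shuttle does the same task as the glycerol phosphate shuttle by another path. Of its 7 genes, 1 rose and 2 fell at 22 °C against 30 °C in KO, and 3 rose and 2 fell in WT. For comparison, 13.8% of all tested genes rose and 13.0% fell in KO, and 20.5% rose and 17.8% fell in WT. Mdh1 rose in WT (0.86) and was the only shuttle gene called for KO against WT at 22 °C, where it was lower (-0.53). Of all tested genes 10.1% were lower and 7.52% higher there. Mdh1, Mdh2, Got1 and Got2 were also counted on the route between pyruvate and triose phosphate, so the lists are not independent. Slc25a13, an aspartate-glutamate carrier, fell in KO (-1.38) and WT (-1.09), with overlap of the libraries in WT. It was near the floor, with 174 counts over all 16 libraries and group means of 0.362 to 0.956 CPM. Slc25a12, the more abundant carrier of this kind, was called in neither genotype (0.19 in KO and -1.21 in WT). Its libraries were spread widely in KO at 22 °C, from 4.22 to 43.1 CPM. In WT all libraries at 22 °C (4.13 to 5.11 CPM) were below all at 30 °C (6.18 to 17.9 CPM).

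**Figure D5:**
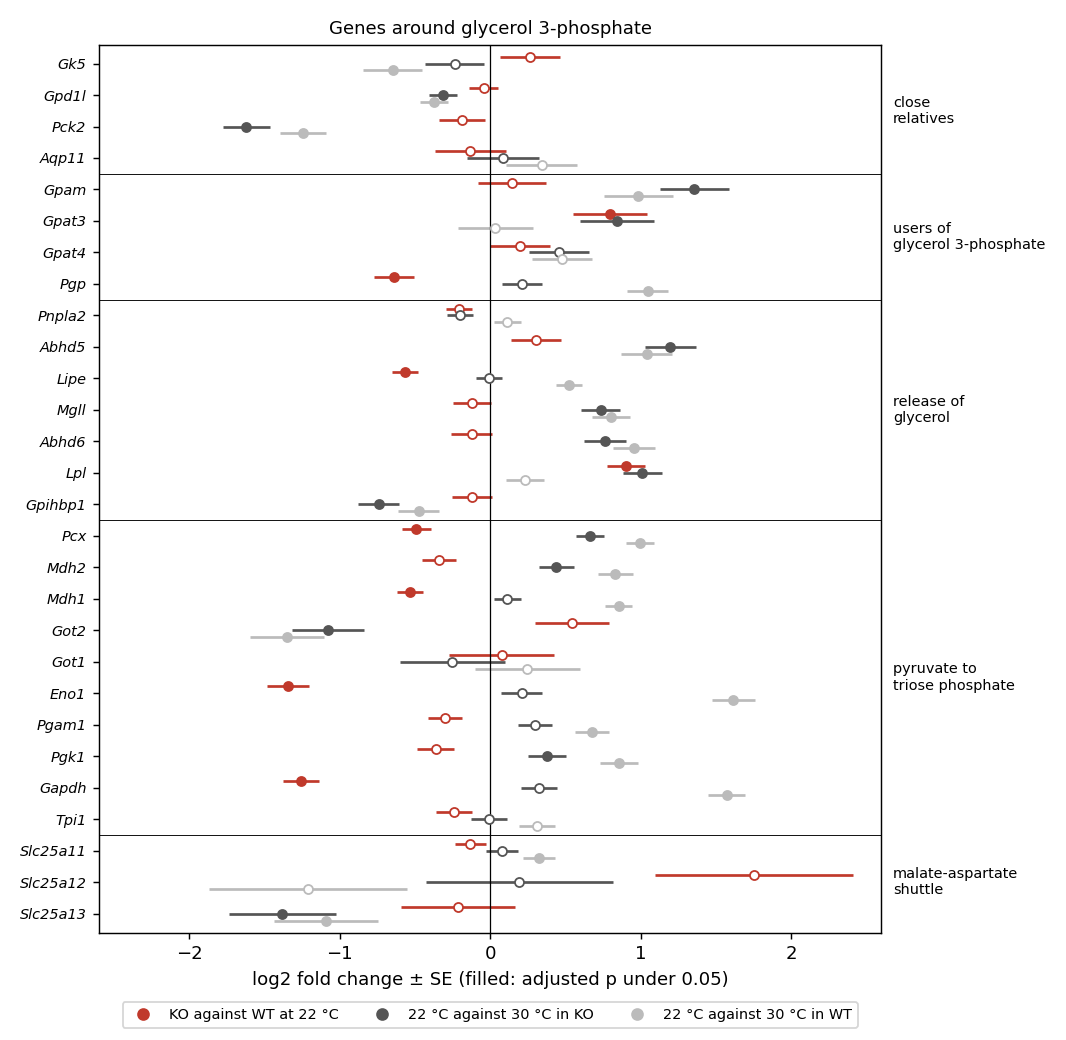
Log2 fold changes ± SE of the tested close relatives, users, glycerol-releasing genes, the pyruvate to triose phosphate route and the malate-aspartate shuttle carriers, filled where the adjusted p is under 0.05. Pck2 lies below -1 at 22 °C against 30 °C in both genotypes, Gpam and Abhd5 lie near or above 1 in both, and Gapdh and Eno1 lie below -1 for KO against WT at 22 °C.

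Of 12 transcription factors and coactivators known to act on these genes, 2 were higher and 2 lower in KO than in WT at 22 °C. Of all tested genes 7.52% were higher and 10.1% lower, so these counts are not read as a result about the list. Ppargc1a was higher (1.16), as was Creb1, the cAMP response factor (0.35). Mlxipl, which encodes the carbohydrate response factor ChREBP, was lower (-0.65), as was Cebpa (-0.62), a factor of adipocyte differentiation. At 22 °C against 30 °C 5 rose and 0 fell in KO, and 5 rose and 1 fell in WT. The shares of all tested genes were 13.8% up and 13.0% down in KO, and 20.5% up and 17.8% down in WT. Ppargc1a rose in KO (2.41) and in WT (1.30), and Foxo1, a factor held out of the nucleus by AKT, rose in KO (0.93) and in WT (1.08). Cebpb, a factor of early adipocyte differentiation, rose in KO (0.80) and in WT (0.82). Mlxipl rose in WT (0.85) and was 0.29 in KO (not called). The gene that fell in WT was Ppara (-0.71), a nuclear receptor of fatty acid oxidation. None of the 12 had a called interaction or was called for KO against WT at 30 °C. Of all tested genes 0.752% had a positive and 2.39% a negative called interaction, and 0.0425% were called at 30 °C. With shares this low, the absence of calls is not read as a result about the list.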

How the data were processed

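Per the labels, RNA of interscapular brown fat was made into Illumina libraries. The deposited table gives whole-number counts of reads for Ensembl genes, with a column for each library, and shows no sign of normalisation by the authors. FastQC 0.10.1, STAR 2.4.2a, edgeR 3.14.0, GRCm38 and mm10 are named, without roles, in the submitters' processing notes. No source used here names the counter, the annotation or the strandedness, so reads of overlapping antisense genes cannot be told apart. Gm14764, Gm16537 and A930012O16Rik overlap exons of Gk, Gpd1 and Gpd2 on the opposite strand, and had 3, 340 and 852 counts in all.

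Symbols matched 37607 identifiers. The 1317 without one held at most 0.132% of a library's counts. Positions and exon lengths are from GENCODE M21 (GRCm38). In R 4.3.3 with edgeR 4.0.16, the 16 libraries, grouped by their labels, were fitted jointly by quasi-likelihood with 1 coefficient for each group, TMM factors and filterByExpr (minimum count 10), which kept 14103 genes. The 5 comparisons are the KO effect at both temperatures, the temperature effect in both genotypes, and their interaction. The common coefficient of biological variation, a single value for all tested genes, was 22.5%. The code was tested on simulated data. Ratios used log2 CPM with a prior count of 2. Alternatives included DESeq2 1.42.0 and limma 3.58.1. Named from each list were up to 3 called genes per comparison with the smallest p, all close relatives and the 3 genes most like each member. Gpihbp1, Ppara, Creb1, Slc25a13 and some second values of named genes were added after their values were seen. The members and lists were chosen with earlier results of these data known.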

Additional observations from a re-analysis of the deposited data

Results flagged for a closer look

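Of 32 sets of 4 libraries tested for a value far from the others (the CPM of each member and each of the 3 ratios, in each group), 2 had a gap to the nearest library, divided by the whole range, above Dixon's 95% critical value for 4 values. Chance gives about 1 such set in 20. Aqp7 in KO at 30 °C replicate 4 measured 341.8 CPM, with a gap of 0.888 of the range above the other 3 libraries of its group. The log2 ratio of Gk to Aqp7 in KO at 22 °C replicate 4 was 1.167, with a gap of 0.892 of the range.

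The KO effect on Gpd1 at 22 °C minus that at 30 °C was -0.7751 on the log2 scale, a difference between the temperatures that was tested directly (edgeR interaction, adjusted p = 0.0470). At 22 °C each KO library was below each WT library, and Gpd1 overlapped between the genotypes at 30 °C.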

How the results depend on the processing

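Gk and Gpd2 at 22 °C against 30 °C in WT, and Gk and Pck1 at 22 °C against 30 °C in KO, kept direction and call in every fit except Gk in WT with the endothelial term. The interaction of Gpd1 and the calls of KO against WT at 22 °C were the least stable, and the cause of each shift was not tested. The untested relatives had too few counts for a comparison at this depth. Values below are log2 fold changes unless said to be counts. Upper-quartile factors gave -0.77 for the interaction of Gpd1 and 0 members called, and moved the median of all genes at 22 °C against 30 °C to -0.08 in KO and -0.13 in WT, with 1179 genes higher and 2540 lower in KO (1943 and 1829 with TMM) and 2196 higher and 3382 lower in WT (2897 and 2509 with TMM). Without a filter, Aqp7 with temperature in KO was -0.30 (not called), the interaction of Gpd1 -0.77, and 0 members and 236 genes had an interaction, against 443 genes with the filter. DESeq2 called 22 genes for KO against WT at 30 °C (6 with edgeR) and 1076 genes and 2 members for the interaction, with Gpd2 at -0.64. Limma-voom gave -0.43 for Gpd1 in KO against WT at 22 °C (not called), -0.022 for Pck1 at 30 °C, 0.37 for Gpd1 with temperature in KO (called), and 1.42 for the interaction of Gk (called). It called 44 genes at 30 °C, 6067 with temperature in KO (3772 with edgeR), and 1050 genes and 2 members for the interaction. Fitting only the groups compared gave 1.07 for Gk and -0.56 for Gpd1 in KO against WT at 22 °C (neither called), with 1 member and 634 genes (2482 in the joint fit), and with temperature in KO 0.34 for Gpd1 (called) and -0.31 for Aqp7 (not called). The skeletal muscle term gave -0.78 for the interaction of Gpd1 and 0 members. Without the 4 libraries over 0.1% muscle markers, KO against WT at 22 °C gave -0.53 for Gpd1 and 1432 genes, KO against WT at 30 °C 1 gene, temperature in KO -0.33 for Aqp7 and 2115 genes with a Gk to Pck1 ratio of 2.84, and the interaction -0.55 for Gpd1 with 0 members and 96 genes. The clock term gave 1.17 for Gk, -0.093 for Gpd1 and -0.73 for Gpd2 in KO against WT at 22 °C, with 0 members and 104 genes. With temperature in KO it gave 0.64 for Gpd1 (called), 0.73 for Gpd2 and -0.34 for Aqp7, with 2208 genes, and for the interaction -0.36 for Gpd1 with 0 members and 23 genes. The endothelial term gave, for KO against WT, 1.14 for Gk, -0.26 for Gpd1 and -0.14 for Aqp7 at 22 °C with 1 member called, and -0.021 for Pck1 at 30 °C. With temperature in WT it gave 2.33 for Gk, 0.62 for Gpd1, 0.74 for Pck1 and -0.24 for Aqp7 with 1 member called, in KO -0.086 for Aqp7, and for the interaction -0.54 for Gpd1 with 0 members.

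Leaving out 1 library at a time gave 0.85 to 1.58 for Gk and 2 to 3 members in KO against WT at 22 °C, and -0.10 to 0.082 for Pck1 and 2 to 7 genes at 30 °C, the 2 being without WT replicate 2. With temperature in KO it gave 0.28 to 0.44 for Gpd1 (called without replicate 1 at 30 °C) and -0.36 to -0.21 for Aqp7. For the interaction it gave 0.76 to 1.49 for Gk, -0.88 to -0.63 for Gpd1 (called in 3 of 16 fits and lost in 13), 0 to 1 members and 147 to 1085 genes.

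Labels give the groups the same replicate numbers, and 13 of the 24 same-numbered pairs of libraries had a correlation of their deviations over 0.1, in a range of -0.503 to 0.519. All 6 pairs of replicate 3 were over 0.1, but in no comparison were all 4 pairs, so the numbers were not taken to pair samples. With the replicate number as a block, Aqp7 with temperature in KO was -0.30 and the interaction of Gpd1 -0.75, neither called, with 0 members and 186 genes in the interaction. Ratio tests with a block or fewer libraries cannot reach 0.05 and are given as values.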
